A study of Bombus terrestris with 8 samples.

Results

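The change in accessible chromatin between the larva and the egg of the bumblebee *Bombus terrestris* was read from 4 peak lists, 2 of pooled worker larvae and 2 of pooled worker eggs. The intervals of these lists were joined where they overlapped by 1 bp or more, which gave 43994 regions, of 63245 when the lists of all 8 samples of the series are joined. A region was called kept when all 4 lists held a peak in it, lost when both egg lists and no larva list did, and gained when both larva lists and no egg list did. By this rule 220 regions were gained (0.5% of the joined regions), 6630 were lost (15.1%) and 9235 were kept (21%). The remaining 27909 regions were mixed, most of them because 1 egg list alone held them (19255 regions). The words lost and gained say only where a peak was listed, since the lists keep peaks that passed a q-value of 0.05 and hold no signal below it.

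Animals were taken from several commercial colonies, and each larva or egg sample was a pool of whole animals made up to the volume of about 1 adult bee. The larvae were C-shaped and the eggs straight and smooth. No age was given beyond the stage. All are workers, no genotype or treatment is given for any group, and the other 4 samples of the series are 2 pools of worker pupae and 2 single adult workers, used here only to look up the larva and egg regions. In whole-body pools, fewer cells of a type and less open chromatin per cell cannot be told apart. The position of the regions relative to genes was not analysed here, so the cell types present could not be checked against their marker genes.

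In ATAC-seq, a transposase cuts DNA that is not wrapped in nucleosomes, and the cut ends pile up at promoters, enhancers and insulators. Promoters of genes that every cell uses tend to be open in all tissues, while enhancers are often open in a single tissue or stage. A bumblebee is a holometabolous insect: the body plan is laid down in the embryo within the egg, the larva that hatches feeds and grows, and the adult body is built in the pupa. A comparison of larva with egg therefore sets feeding, growing tissue against embryonic tissue.

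The larva lists held 17073 and 12331 distinct intervals, against 33612 and 30268 in the egg lists. All 4 lists hold the study's candidate peaks, taken before its filter for reproducibility between replicates. In the study's filtered set the larva and egg numbers lay closer together, and that set was not used here. The larva mean of 14702 ± 3353 (SD, n = 2) was 46.0% of the egg mean of 31940 ± 2365 (SD, n = 2). Both larva lists were shorter than both egg lists, and the exact two-sided permutation test over the 4 samples gave p = 0.333, the smallest p that 2 samples against 2 allow. The gap was wider on the 18 chromosomes to which Bter_1.0 assigns sequence (contigs NC_, here called placed), with 9821.5 ± 2753 intervals in the larva and 25201 ± 1830 in the egg. On unplaced contigs (NW_) the larva had 4880.5 ± 600.3 intervals and the egg 6739 ± 534.6, so that the larva mean was 39.0% of the egg mean on placed chromosomes and 72.4% on unplaced contigs. Unplaced contigs made up 31.1% and 36.1% of the larva lists and 21.2% and 21.0% of the egg lists. The lists hold no reads per peak, and the mapped reads per library that the study states entered no calculation here. In mapped reads, larva replicate 2, with the shortest list, was the deepest of the 4 libraries and larva replicate 1 the shallowest.

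Most larval intervals lay where an egg list also had one, but not the reverse. Of the intervals of larva replicates 1 and 2, 86.3% and 86.6% overlapped an interval of egg replicate 1, and 87.8% and 87.9% one of egg replicate 2. In the other direction, larva replicate 1 covered 43.8% and 48.7% of egg replicate 1 and egg replicate 2 intervals, and larva replicate 2 covered 31.6% and 35%. The larva lists are shorter than the egg lists, which by itself limits the share in this direction. The part of list length in the difference was not tested. Between replicates, 61.4% of the intervals of larva replicate 1 lay in larva replicate 2 and 85.6% the other way, and 62.5% of those of egg replicate 1 lay in egg replicate 2 and 68.4% the other way. A larval interval was thus found in an egg list at least as often as in the other larva list. An egg list holds more intervals to overlap than a larva list, and these shares were not matched for length. The Jaccard index (base pairs covered in both lists over those covered in either) was 0.425 and 0.446 for larva replicate 1 with egg replicates 1 and 2, and 0.330 and 0.348 for larva replicate 2. It was 0.579 for the 2 larva lists and 0.476 for the 2 egg lists, so all 4 pairs of different stages lay below both pairs of replicates. The larva lists cover 7.45 and 5.69 Mb and the egg lists 13.6 and 13.4 Mb. A difference in covered length caps the index between stages, and no value matched for length was computed.

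On the placed chromosomes 119 regions were gained (0.334% of the 35637 joined regions there), 5846 were lost (16.4%) and 5550 were kept (15.6%). Unplaced contigs had 101 gained regions (1.21% of 8357), 784 lost (9.38%) and 3685 kept (44.1%). Among placed regions with a peak in both egg lists and in both or neither larva list, 51.3% were lost (50.4% to 52.2%, exact Clopper-Pearson limits at 95%). Of the unplaced ones 17.5% were lost (16.4% to 18.7%). Of the placed regions with a peak in both larva lists and in both or neither egg list, 2.1% (1.74% to 2.51%) were gained, and of the unplaced ones 2.67% (2.18% to 3.23%). These intervals cover counting error only, and each share comes from 1 set of 4 lists. The shares leave out regions with a peak in only 1 list of the other stage. With both egg lists and 1 larva list these were 3861 placed and 627 unplaced regions. With both larva lists and 1 egg list they were 442 and 271. The lost regions covered 2.45 Mb of the placed chromosomes, the kept ones 3.95 Mb and the gained ones 0.0468 Mb.

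Between these classes lay regions in which a single list decided. A further 4488 regions had a peak in both egg lists and in 1 larva list, which was larva replicate 1 in 4007 of them and larva replicate 2 in 481. A peak in both larva lists and 1 egg list was found in 713 regions, with 332 in egg replicate 1 and 381 in egg replicate 2. With larva replicate 2 as the only larva list, 10651 regions were lost, and with larva replicate 1 as the only one, 7114. With egg replicate 2 or egg replicate 1 as the only egg list, 14744 and 18136 were lost, since a peak in 1 egg list was then enough. Gained regions numbered 883 with larva replicate 2 alone, 1003 with larva replicate 1 alone, and 558 and 618 with egg replicate 2 or egg replicate 1 alone.

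**Figure D1:**
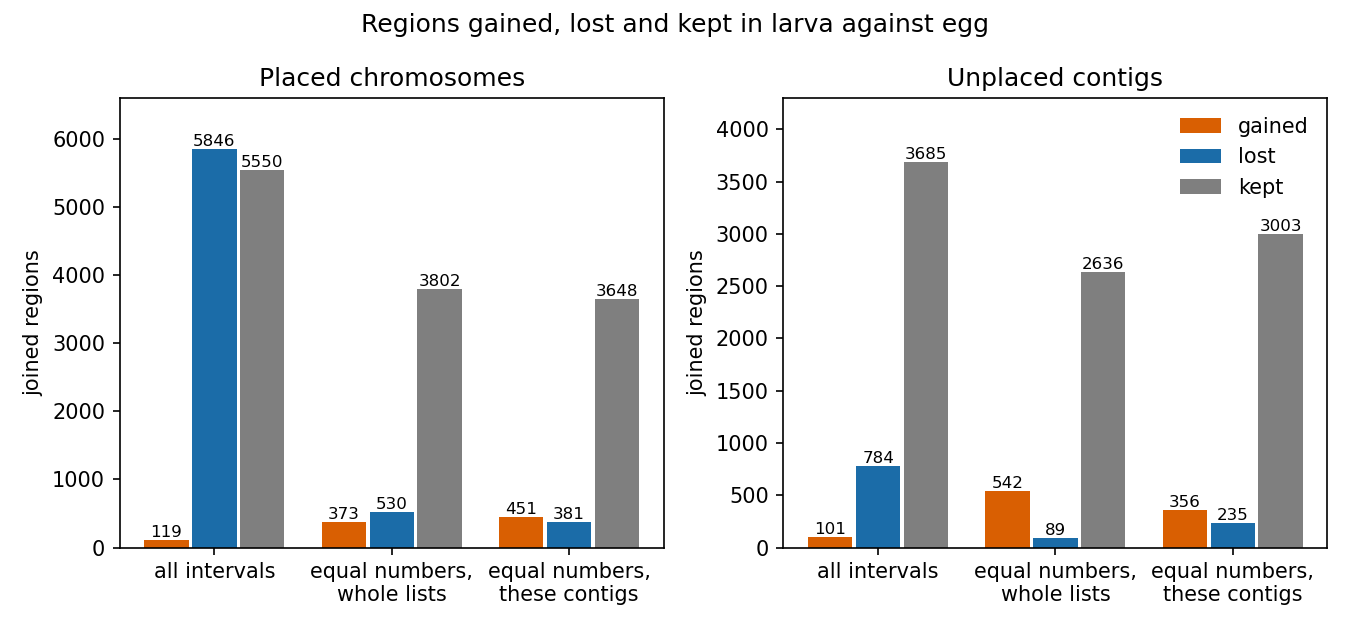
Number of joined regions gained, lost and kept (bars, y axis from 0) on placed chromosomes (left) and unplaced contigs (right), with all intervals, with equal numbers of top intervals from whole lists, and with equal numbers from those contigs alone. With all intervals, 5846 placed regions were lost and 119 gained, and with 7875 placed intervals from every list 381 were lost and 451 gained.

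The excess of lost over gained regions changed with the length of the lists compared. When each list was reduced to its 12331 intervals of highest −log10 p, the length of the shortest, 915 regions were gained (4.6% of 19895), 619 lost (3.11%) and 6438 kept (32.4%). On placed chromosomes 373 were gained (2.59% of 14378), 530 lost (3.69%) and 3802 kept (26.4%), and on unplaced contigs 542 were gained (9.82% of 5517), 89 lost (1.61%) and 2636 kept (47.8%). The reduced lists still held unequal numbers on each kind of contig, so placed chromosomes were also compared by themselves, with 7875 intervals from every list. Then 451 regions were gained (3.32% of 13567), 381 were lost (2.81%) and 3648 were kept (26.9%). With 4456 unplaced intervals from every list, a setting chosen after seeing the data, 356 regions were gained (5.82% of 6113), 235 lost (3.84%) and 3003 kept (49.1%). The ratio of lost to gained placed regions was therefore 49.1 with all intervals, 1.42 with whole lists of equal length and 0.845 with equal numbers of placed intervals.

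Regions gained between lists of equal length were mostly present in the egg with a lower rank. Of the 915, 613 (67.0%) had an interval in both full egg lists, 233 in 1 and 69 (7.54%) in neither. Of the 619 regions lost between lists of equal length, 389 (62.8%) had no interval in either full larva list and 230 had one in 1 of them. None of the 619 had one in both, as the reduced list of larva replicate 2 is its full list. Among the 6630 regions lost between the full lists, 389 (5.87%) ranked within the first 12331 in both egg lists, 325 of them on placed chromosomes. Of the 220 gained regions, 69 (31.4%) ranked within the first 12331 in both larva lists, 26 on placed chromosomes and 43 on unplaced contigs. As larva replicate 2 has no more than 12331 intervals, only larva replicate 1 could exclude a gained region. The 2 shares are therefore not on an equal footing. At rank 12331 the −log10 p was 7.08 and 2.85 in larva replicates 1 and 2, against 16.8 and 18.6 in egg replicates 1 and 2.

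Lost and gained regions were weak in the stage that had them. The median fold enrichment, the signal at a summit divided by the background around it within that library, was 2.70 and 2.99 for the gained placed regions in larva replicates 1 and 2, where kept placed regions had 4.76 and 4.21. For lost placed regions it was 3.76 and 3.33 in egg replicates 1 and 2, where kept placed regions had 5.96 and 6.34. None of the 119 gained placed regions had −log10 p above 20 in a larva list, while 19.2% and 13.4% of the lost placed regions did in the egg lists. For kept placed regions this share was 41.1% and 15.1% in the larva lists and 69.8% and 84.2% in the egg lists. Gained placed regions had a median width of 373 bp, lost ones 378 bp and kept ones 645.5 bp. An interval with several summits occurred in 5.04% and 7.56% of gained placed regions in the larva lists and in 7.73% and 9.34% of lost ones in the egg lists, against 24.8% and 24.5% (larva) and 26.5% and 35% (egg) of kept ones. A kept region joins intervals of both stages, so its width is not independent of the rule, and these differences were not tested.

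The share of intervals found in the other stage was followed through each list in deciles of −log10 p (each holding a like number of intervals), on placed chromosomes. In the strongest decile of larva replicates 1 and 2, 99.7% and 99.4% of the intervals had an overlap in both egg lists, and none (0%) was missing from both. In the strongest decile of egg replicates 1 and 2, 81.7% and 94.6% had one in both larva lists, and 6.38% and 0.209% in neither. The share fell gradually in the larva, to 86.5% and 85.9% in the fifth decile and 45.9% and 48.5% in the weakest. It fell steeply in the egg, to 12.2% and 10.8% in the fifth decile and 4.38% and 3.22% in the weakest. At similar −log10 p, 11.9 to 15.2 in the fourth decile of larva replicate 1 and 11 to 13.8 in the fifth decile of egg replicate 1, 92.9% of the larva intervals and 12.2% of the egg intervals were found in both lists of the other stage. The larva lists held 11768 and 7875 placed intervals, and the egg lists 26495 and 23907. An egg interval thus had fewer intervals of the other stage to overlap. The deciles were not matched for list length, and its part in the steep fall was not tested. Overlap with the other replicate of the same stage also fell with strength, to 20.9% and 50.6% in the weakest decile of larva replicates 1 and 2 and to 28.2% and 49.4% in that of egg replicates 1 and 2.

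**Figure D2:**
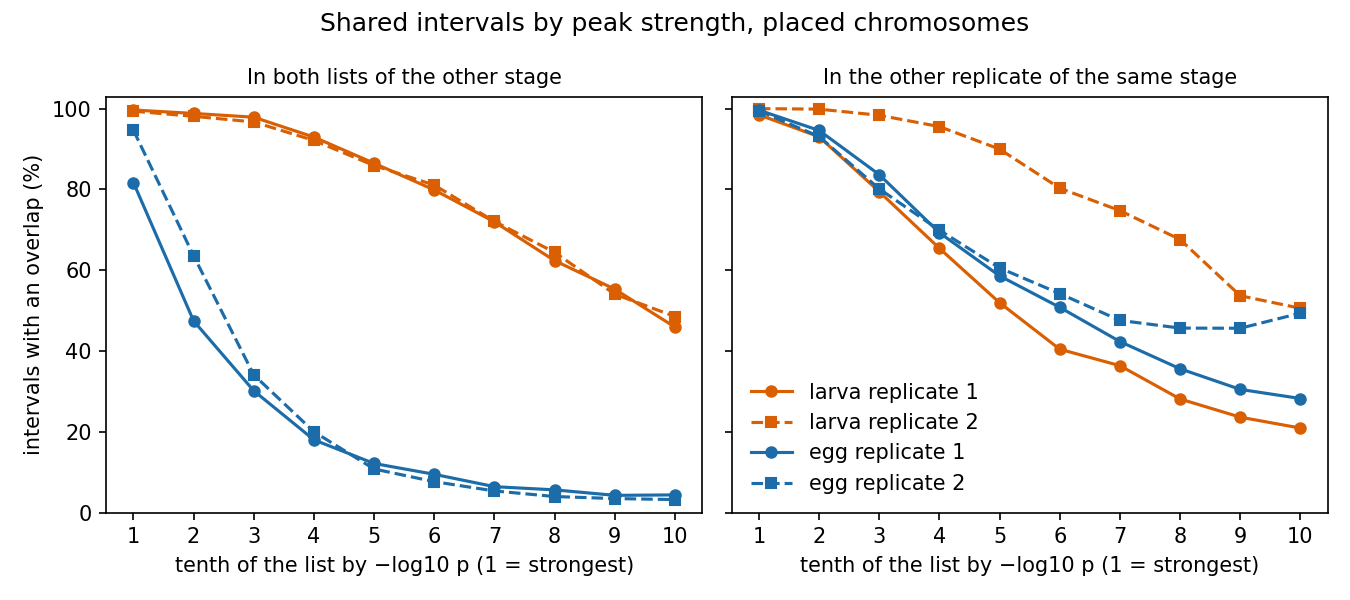
Share of the intervals of each list (y axis, %) that overlap an interval in both lists of the other stage (left) or in the other replicate (right), by decile of the list in order of −log10 p (x axis), on placed chromosomes. In the fifth decile, 86.5% and 85.9% of larva intervals but 12.2% and 10.8% of egg intervals were found in both lists of the other stage. The larva lists are shorter than the egg lists, and the shares are not matched for list length.

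The strongest gained regions of the placed chromosomes had modest peaks. The first, NC_015770.1 from 6535122 to 6535717, reached a 4.18-fold and 4.67-fold enrichment in the larva replicates and had no interval in either egg list. It was also listed in all later samples, at 6.15 and 3.93 in the pupa and 3.09 and 2.19 in the adult. The second, on the same chromosome from 11692661 to 11693008, had 3.64 and 4.86 in the larva, 3.17 and 2.99 in the pupa and 2.09 and 2.55 in the adult. Both were thus listed in every stage but the egg. The third, NC_015762.1 from 8269459 to 8269920, with 3.78 and 3.53 in the larva, appeared later only in pupa replicate 1, at 2.24. The fourth, NC_015765.1 from 7568239 to 7568950, had 3.51 and 3.92 in the larva and was listed in 3 of the 4 later samples, at 2.08 to 2.29. The fifth, NC_015773.1 from 6086979 to 6087374, had 3.48 and 3.45 in the larva. Its peaks were higher in all later samples, with 9.11 and 7.11 in the pupa and 6.44 and 4.0 in the adult.

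The 5 strongest lost placed regions had larger egg values than the larva values of the 5 strongest gained ones. They are the top of 5846 regions against 119, and fold enrichment is not normalized between lists. The 2 sets are therefore not on an equal footing. The first lost region, NC_015773.1 from 4080246 to 4080800, lacked an interval in both larva lists and reached 9.91-fold and 10.1-fold enrichment in the egg, with −log10 p of 72.7 and 60.6. In the pupa it stood at 8.76 and 8.43 and in the adult at 2.69 and 2.45. The second, NC_015775.1 from 3178119 to 3178715, had 13.6 and 8.62 in the egg, 5.87 and 6.61 in the pupa and 3.99 and 2.92 in the adult. In these first 2 regions the pupal values lay above the adult ones. The third, NC_015772.1 from 5397826 to 5398837, had 10.3 and 8.19 in the egg and the opposite order later, with 2.70 and 3.74 in the pupa and 7.48 and 5.56 in the adult. The fourth, NC_015765.1 from 10534781 to 10535542, had 11.8 and 8.04 in the egg, and the fifth, NC_015766.1 from 8484323 to 8485328, had 7.99 and 8.39. All 5 had a peak in each of the 4 pupa and adult lists, so the larva was the only stage without one.

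On unplaced contigs the strongest gained regions were NW_003565814.1 from 11230 to 11508, with 5.66 and 7.85 in the larva, and NW_003569030.1 from 1 to 481, with 5.93 and 5.42, which begins at the first base of its contig. Each was listed in 1 later sample, pupa replicate 1 at 3.17 and adult replicate 2 at 2.08. The strongest lost ones, NW_003569305.1 from 718 to 1398 with 8.64 and 7.35 in the egg and NW_003566384.1 from 1742877 to 1743302 with 7.34 and 7.35, were listed in all 4 later samples. Regions at the first base of a contig made up 9.90% of the gained, 1.66% of the lost and 51.6% of the kept unplaced regions.

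At the edge of the rule, the lost placed region nearest to a larval interval was 2 bp away from it (NC_015773.1 from 1711582 to 1711893, fold enrichment 3.89 and 2.99 in the egg). The gained placed region nearest to an egg interval lay 20 bp from it (NC_015765.1 from 13401923 to 13402481, 2.52 and 2.65 in the larva). Just inside the kept class, the largest overlap of a larva with an egg interval was taken for each placed region. The smallest of these values was 164 bp, in NC_015772.1 from 8823714 to 8824688. Such near misses were few. An interval of the other stage lay within 200 bp of 8 gained placed regions (6.72%) and of 139 lost ones (2.38%), and the median distance was 3575 bp for gained and 4902.5 bp for lost placed regions.

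**Figure D3:**
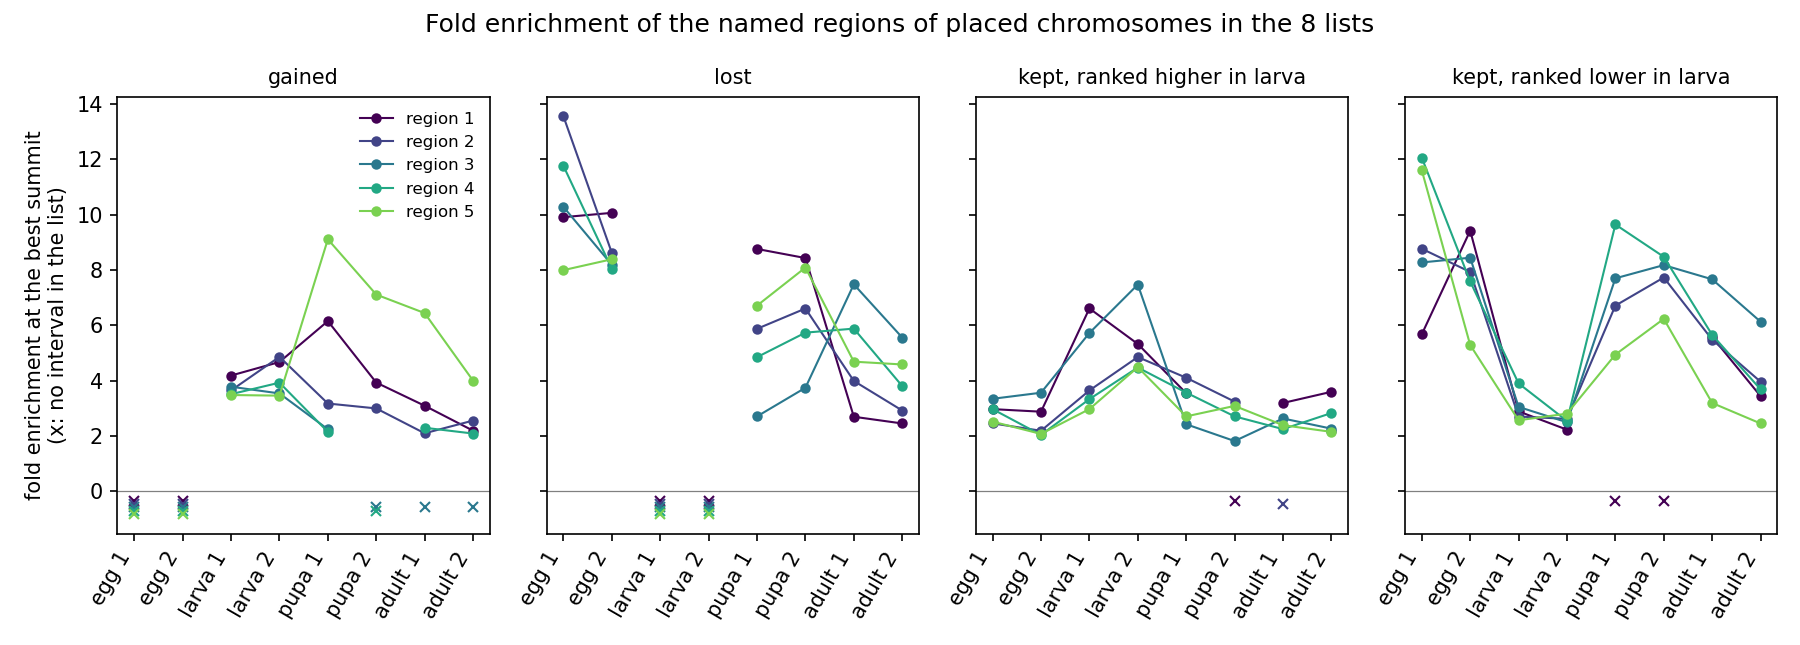
Fold enrichment (y axis) in the 8 lists, in the order of the stages (x axis), of the 5 named placed regions of each class: gained, lost, kept with a higher rank in the larva, and kept with a lower rank in the larva. A cross below 0 marks a list without an interval there, as for all 5 lost regions in both larva lists.

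The pupa and adult lists took no part in choosing the regions and were used to ask whether a region of the larva or egg also had a peak later. On placed chromosomes 51.3% and 41.2% of the gained regions had a peak in pupa replicates 1 and 2, and 33.6% and 42.0% in adult replicates 1 and 2. The lost regions had one more often, at 62.5% and 68.8% in the pupa lists and 47.9% and 56.3% in the adult lists. For kept regions the shares ran from 93.6% to 95.7%, and over all joined regions of the placed chromosomes from 44.6% to 57.3%. Gained placed regions were thus below, and lost ones above, the share over all joined placed regions in 4 of 4 lists. This did not hold for lost regions on unplaced contigs, with 62.8% and 69.3% in the pupa and 50% and 59.3% in the adult, where all joined unplaced regions had 67.5% and 61.0%, and 63.3% and 67.4%, so that lost ones were above in pupa replicate 2 alone. With both kinds of contig together, the mean over the 4 later samples was 34.9% ± 9.06 for gained and 59.0% ± 8.80 for lost regions (SD, n = 4). The difference of −24.2 percentage points had the same sign in 4 of 4 samples (exact two-sided sign-flip permutation test over samples, p = 0.125, the smallest p this design allows). On placed chromosomes the difference was −16.9 points. With equal numbers of intervals in all 8 lists it was −32.2 points, for gained and lost regions classed anew from the shortened lists. Lost regions had the higher fold enrichment, and the part of peak strength in this difference was not tested.

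A peak in all 4 later lists was found for 16 of the 119 gained placed regions (13.4%), 1916 of the 5846 lost ones (32.8%) and 4932 of the 5550 kept ones (88.9%), against 31.3% of all joined placed regions. None of the later lists held a peak for 31 of the gained (26.1%), 994 of the lost (17.0%) and 46 of the kept regions (0.829%). Both pupa lists and no adult list held 18 gained and 865 lost placed regions, and both adult lists and no pupa list held 6 gained and 308 lost ones. So in each class more regions were shared with the pupa alone than with the adult alone, as they were among all joined placed regions, with 3663 and 1784.

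Lost regions with stronger egg peaks more often had a peak in the later lists. A peak missing from the larva lists does not show that the region was closed there. When the lost placed regions were put into 4 groups of like size by the lower −log10 p of the 2 egg lists, the weakest group (2.53 to 5.52) had 21.4% of its regions in all 4 later lists and 24.1% in none. The second group had 26.2% and 19.8%, the third 34.2% and 14.4%, and the strongest (10.9 to 60.6) 49.3% and 9.64%. Of the 325 lost placed regions that ranked within the first 12331 in both egg lists, 84.3% and 88.6% had a peak in pupa replicates 1 and 2, and 70.8% and 80.0% in adult replicates 1 and 2. Of the 26 gained placed regions that did so in both larva lists, 65.4% and 50% had one in the pupa and 38.5% and 46.2% in the adult.

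Gained regions of unplaced contigs differed between later samples. A peak was listed for 26.7% of them in pupa replicate 1 and 4.95% in pupa replicate 2, which is 5 of 101 regions, and for 26.7% and 47.5% in adult replicates 1 and 2. Kept unplaced regions were also found less in pupa replicate 2 (85.3%) than in the other 3 later lists (96.1% to 97.3%), while lost unplaced regions were found in it most (69.3%). For the gained unplaced regions, 1 pupa list and 1 adult list thus had the same share, and the replicates of each stage lay far apart.

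**Figure D4:**
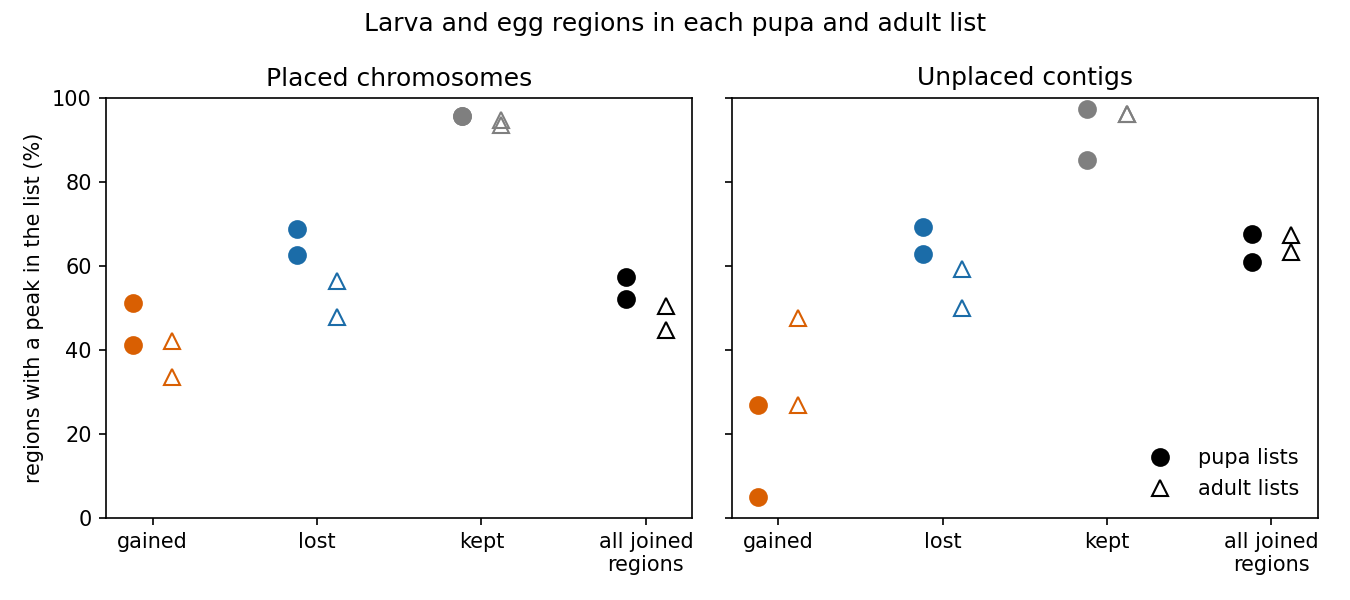
Share of the gained, lost, kept and all joined larva and egg regions (x axis) that had a peak in each of the 2 pupa lists (filled circles) and 2 adult lists (open triangles), in %, on placed chromosomes (left) and unplaced contigs (right). On placed chromosomes, lost regions lay between 47.9% and 68.8% and gained ones between 33.6% and 51.3%.

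Losses were spread over the whole genome. Each of the 18 placed chromosomes had lost regions, and their share of the lost and kept regions together ran from 47.0% on NC_015778.1 to 58.8% on NC_015774.1. Gained regions numbered between 1 and 11 a chromosome, from 0.847% of the gained and kept regions on NC_015779.1 to 3.79% on NC_015774.1. Of 2165 windows of 100 kb with any joined region, 1748 (80.7%) held a lost region, 1681 (77.6%) a kept one and 107 (4.94%) a gained one. The number of lost regions in a window had a Spearman correlation of 0.466 with the number of kept regions over these windows, which differ in peak density and in mappable sequence. For gained regions the correlation was −0.0311.

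The windows with most lost regions were NC_015768.1 from 2100001 to 2200000, with 14 lost, 2 kept and 0 gained regions, and NC_015773.1 from 9100001 to 9200000, with 13 lost, 4 kept and 0 gained. They also held 16 and 20 mixed regions, some of which can have a larval interval. No window had more than 2 gained regions. Among those with 2, the first in genome order were NC_015763.1 from 1 to 100000, without kept or lost regions, and NC_015763.1 from 12800001 to 12900000, with 2 lost and no kept regions.

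At the 9235 kept regions, the question was whether a region open in both stages ranked differently. Fold enrichment is not normalized between lists, so each list's kept regions were ranked by their best summit and the ranks turned into normal scores. No region passed an adjusted p of 0.05 (limma on the normal scores with Benjamini-Hochberg adjustment over all kept regions, 0%, lowest adjusted p = 0.257). At an unadjusted p under 0.05, 675 regions were higher in the larva and 647 lower. The same test on log2 fold enrichment, with the median of each list taken off, called 4 regions higher in the larva and none lower (limma, lowest adjusted p = 0.0435).

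Both larva ranks lay above both egg ranks in 2359 kept regions (25.5%), and below them in 2182 (23.6%). Placed and unplaced regions went apart. On placed chromosomes 14.7% ranked higher in both larva lists and 30.6% lower, while on unplaced contigs 41.9% ranked higher and 13.1% lower. The median shift, larva minus egg, was −0.17 scores on placed chromosomes and 0.26 on unplaced contigs. These medians are a description with no test. Unplaced regions at the first base of a contig (1902 regions, 44.5% higher, 9.20% lower) and elsewhere (1783 regions, 39.1% higher, 17.2% lower) both had more regions ranked higher than lower, and the difference between them was not tested.

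Fold enrichment itself, which is not normalized between lists, showed a gap for placed regions only. The median fold enrichment of kept placed regions was 4.76 and 4.21 in the larva lists, below the 5.96 and 6.34 of the egg lists. For kept unplaced regions it was 9.04 and 8.41 in the larva and 9.18 and 7.24 in the egg, so that the stages overlapped. Because ranks are relative, the balance of higher and lower regions depends on what is ranked. When the 5550 placed regions were ranked among themselves, 1361 were higher in both larva lists and 1090 lower, the reverse of the order above. As a percentile of all intervals of a list, 524 of the 9235 were higher and 5120 lower.

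**Figure D5:**
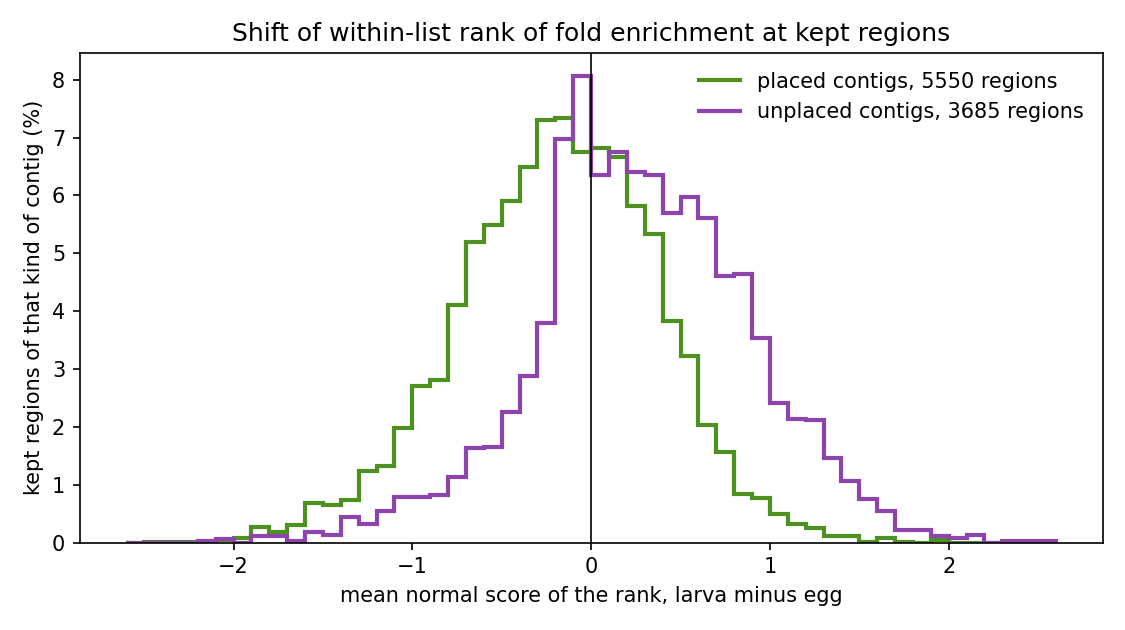
Distribution of the shift in mean normal score of the rank of fold enrichment, larva minus egg (x axis), for kept regions of placed chromosomes and of unplaced contigs (y axis, % of the regions of that kind). The placed regions had a median of −0.17 and the unplaced regions 0.26.

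The ranks of larva replicate 1 were closer to those of egg replicate 1 than the 2 egg lists were to each other. Over the kept regions the Spearman correlation of fold enrichment was 0.853 between the larva lists and 0.741 between the egg lists. Between stages it was 0.794 and 0.672 for larva replicate 1 with egg replicates 1 and 2, and 0.684 and 0.581 for larva replicate 2. On placed chromosomes alone, larva replicate 1 had 0.672 with egg replicate 1 and 0.702 with egg replicate 2, against 0.711 for the larva pair and 0.684 for the egg pair. These correlations are across regions, which share each list's depth and background and are not replicates.

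Among the kept placed regions with both larva ranks above both egg ranks, NC_015762.1 from 11956914 to 11958274 had the largest shift. Its fold enrichment was 6.61 and 5.32 in the larva (ranks 3497 and 3953 of 9235) and 2.97 and 2.87 in the egg (ranks 8800 and 8848). NC_015772.1 from 7720590 to 7721113 had 3.64 and 4.85 in the larva and 2.45 and 2.18 in the egg. In NC_015779.1 from 3238955 to 3239634 the larva had 5.72 and 7.47 and the egg 3.34 and 3.56, and all later values, 1.81 to 2.63, were below both stages. The other two, NC_015762.1 from 7274552 to 7275187 and NC_015763.1 from 1477003 to 1477621, had 3.33 and 4.47, and 2.97 and 4.48, in the larva, against 2.96 and 2.03, and 2.51 and 2.07, in the egg. In each of these 5 regions both egg values were below both larval values. The regions were chosen by the ranks of these same values, so this is no separate result.

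The largest shifts the other way were taken from kept placed regions with both larva ranks below both egg ranks. Their higher egg values follow from that choice. NC_015770.1 from 6103556 to 6104106 had 2.88 and 2.22 in the larva and 5.67 and 9.42 in the egg, was missing from both pupa lists and had 5.58 and 3.44 in the adult. NC_015766.1 from 11145522 to 11146050 had 2.70 and 2.62 in the larva (ranks 8899 and 8957) and 8.77 and 7.93 in the egg (ranks 2935 and 3307), and again 6.71 and 7.73 in the pupa. In NC_015772.1 from 6476159 to 6476696 the larva had 3.05 and 2.49 and the egg 8.27 and 8.44, with 7.70 and 8.18 in the pupa and 7.66 and 6.13 in the adult. NC_015762.1 from 8222410 to 8223023 had 3.90 and 2.54 in the larva and 12.1 and 7.58 in the egg, and NC_015764.1 from 13696413 to 13697078 had 2.56 and 2.80 in the larva and 11.6 and 5.29 in the egg. In the last 4 of these regions every pupal value lay above both larval values.

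The later lists were also used to follow the kept regions that had ranked higher or lower in the larva. A peak in all 8 lists was found for 7998 kept regions, and scores were taken anew over these. The 1540 placed regions of this kind that ranked lower in both larva lists had median scores of −0.42 and −0.62 in the larva and 0.22 and 0.25 in the egg, which chose them, while all 4932 placed regions had −0.35 and −0.34 in the larva and −0.30 and −0.16 in the egg. In the lists that did not choose them, the medians were 0.24 and 0.54 in the pupa and 0.01 and 0.04 in the adult. The placed regions as a whole had −0.22 and 0.04 in the pupa and −0.19 and −0.18 in the adult, so that the regions ranked lower in the larva stood above them in each of the 4 later lists. The 743 placed regions that ranked higher in both larva lists had −0.11 and 0.03 in the larva and −0.65 and −0.64 in the egg. Their medians were −0.51 and −0.38 in the pupa and −0.33 and −0.41 in the adult, below all placed regions in each later list. The choice rested in part on the egg ranks. In both egg lists the first set had medians above, and the second below, those of all placed regions. How far this choice by itself sets the later medians was not tested.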

How the data were processed

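Whole-body ATAC-seq peak lists of pooled worker larvae (2 samples) and pooled worker eggs (2) were compared, and those of pooled pupae (2) and single adults (2) were used for look-up. Groups came from the sample titles. The authors filtered reads with SOAPnuke, aligned them to Bter_1.0 with Bowtie2 2.2.5, keeping up to 200 alignments per read, and called peaks per sample with MACS2 2.2.5 (shift −100 bp, extension 200 bp, summits split, no control named). No removal of duplicates was named. The deposited lists give a fold enrichment (a ratio to local background), −log10 p and −log10 q per summit, the score derived from q, and positions, none normalized between samples.

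Distinct intervals took their best summit and were joined and classed as described above. The members and rules were chosen with earlier results of these data known. Named regions were the 5 placed and 2 unplaced ones of highest fold enrichment in the weaker replicate (lost, gained), the 5 kept placed ones with the largest shift each way among those whose ranks did not overlap (no region passed limma), the 2 windows with most lost or gained regions, and those at the edge of the rule. Normal scores used (rank − 0.5)/n. Joining and the limma fit were tested on simulated data. Positions are 1-based on Bter_1.0, whose genes and sequence were not used here, so the gene lists were not analysed. Nothing states whether the pools came from separate colonies, so the spread may be partly technical. Python 3.11.15, numpy 2.4.6, pandas 2.3.3, scipy 1.17.1, matplotlib 3.10.9, R 4.3.3 and limma 3.58.1 were used.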

Additional observations from a re-analysis of the deposited data

How the results depend on the processing

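With equal numbers of top intervals, gained, lost and kept regions over all contigs numbered 915, 619 and 6438. On placed chromosomes 373 were gained and 530 lost, so that lost minus gained was 157, 8.93% of the larva regions being gained and 12.2% of the egg regions lost (each of that class plus kept). With placed chromosomes taken alone the counts were 451, 381 and 3648, the difference reversed to −70, and the shares were 11% and 9.46%. On unplaced contigs 542 were gained and 89 lost, a reversed difference of −453, with shares of 17.1% and 3.27%. Unplaced contigs alone, chosen after seeing the data, gave 356 and 235, a reversed difference of −121, with shares of 10.6% and 7.26%.

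With −log10 p above 20 in every list, 64 regions were gained (3 placed, 61 unplaced), 2863 lost (2471 placed, 392 unplaced) and 2739 kept (756 placed, 1983 unplaced), so lost minus gained was 2468 on placed and 331 on unplaced contigs, and 0.395% of placed larva regions were gained and 76.6% of placed egg regions lost. Above 10, 81 regions were gained (11 placed), 5350 were kept (2584 placed), 0.424% of placed larva regions were gained and 60.6% of placed egg regions lost. Windows around summits gave 383 gained regions, 189 placed (3.02%) and 194 unplaced (4.09%). An overlap of 100 bp and joining across 200 bp left every count within 1.5 times.

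Leaving out 1 replicate in turn makes 1 list sufficient for its stage, and lost exceeded gained each time. Gained regions ran from 558 to 1003 (placed 253 to 687, unplaced 173 to 316), lost from 7114 to 18136 (6263 to 16010, 851 to 2126) and kept from 9615 to 13264 (5723 to 9005, 3759 to 4259). Lost minus gained ran from 5576 to 15565 on placed and 535 to 1953 on unplaced contigs. Of larva regions, 4.13% to 9.57% (placed) and 4.26% to 7.5% (unplaced) were gained, and of egg regions 41.0% to 73.7% and 16.7% to 35.3% were lost. The difference between gained and lost regions in the later lists was recomputed without 1 pupa or adult list in turn, with the classes unchanged. It stayed below 0, from −28.2 to −17.5 points. It was not recomputed without a larva or egg list.

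At kept regions, limma called 0 regions in all but 1 setting, log2 fold enrichment less the median, with 4. Regions higher and lower in both larva lists numbered 3610 and 1568 there, 524 and 5120 by percentile among all intervals, and 1361 and 1090 of placed regions alone. Without 1 replicate they ran from 3140 to 3800 and from 3082 to 3900, with 0 limma calls. Larva and egg samples of the same number did not deviate together (correlation 0.0331 over 9235 regions), and the labels give no pairing beyond the number. The fit with the replicate block had 0 calls (690 higher and 697 lower at an unadjusted p under 0.05, lowest adjusted p = 0.232), with 2359 and 2182 regions higher and lower. With 2 samples a stage and no reads per peak, a peak missing from a list is not evidence of closed chromatin.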
